A study of Mus musculus with 6 samples.

Results

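Apolipoproteins are the protein components of the particles that carry lipid in blood, and the liver secretes most of them. The 10 genes described here are Apoa1, Apoa2, Apoa4, Apoa5, Apob, Apoc1, Apoc2, Apoc3 and Apoe together with Mttp, which encodes the protein that loads lipid onto apolipoprotein B. They were chosen by symbol from 55450 genes in the table, and all 10 were among the 14539 genes that passed the filter on low counts. Messenger RNA was sequenced from the left lobe of the liver, 1 library for each of 6 mice of strain C57BL/J that were 10 weeks old. In the knockout (KO) group, 3 LKB1 fl/fl mice, whose LKB1 alleles carry sites at which Cre cuts, had received AAV8 Cre, a virus carrying the Cre recombinase, at 6 weeks of age. The wild type (WT) group, labelled normal in genotype, was 3 mice that had received the same virus, and livers of both groups were taken 4 weeks after it. The promoter that drove Cre is not given in the sources used here. In mouse liver AAV8 infects mainly hepatocytes, and cells that it does not reach keep LKB1.

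In very-low-density lipoprotein (VLDL), 1 molecule of apolipoprotein B forms the scaffold of a particle that hepatocytes fill with triglyceride and secrete, and Mttp is required for that loading. High-density lipoprotein (HDL) is built around apolipoproteins A-I and A-II, the products of Apoa1 and Apoa2. The smaller exchangeable proteins, the C group, apolipoprotein A-V and apolipoprotein E, move between particles and set how fast lipases and receptors act on them. LKB1, encoded by Stk11, is a kinase that activates AMPK and related kinases, among them the SIK family.

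The libraries held 47659122 to 56147667 counts. Values are in CPM, counts of a gene per 1e6 counts of its library, scaled by TMM factors. Stk11 was at 22.1, 14.4 and 11.4 CPM in KO replicates 1 to 3 and 66.1, 64.2 and 69.7 CPM in WT replicates 1 to 3. Its log2 fold change was -2.06 ± 0.247 (SE, edgeR adjusted p = 0.0167), from a total over the gene that does not single out the deleted exons. Without KO 2, KO 3, WT 2 or WT 3 the adjusted p of Stk11 in edgeR was 0.0607 to 0.104, and its direction was the same. Replicate 1 of each group had Xist counts (42472 in KO and 29243 in WT) and at most 6 counts of 4 Y-linked genes, whereas the other 4 libraries had at least 6146 Y-linked counts and at most 16 of Xist. The labels do not give this difference, so results below are also given for the 4 libraries positive for Y-linked genes, called Y-positive (2 against 2), and for the 2 others, called the Xist-positive pair (1 against 1, no replicate check). The log2 ratio of Stk11 itself was -2.38 in the Y-positive libraries and -1.57 in the Xist-positive pair. KO 1 thus kept the most Stk11 message of the KO libraries, and whether this bears on its other values was not tested. The hepatocyte gene Alb was at 10394 CPM or more in every library.

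Most of these genes lie in 2 clusters. Apoa1, Apoc3, Apoa4 and Apoa5 lie on chromosome 9 between 46228580 and 46271919 (GRCm38), and Apoc2, Apoc1 and Apoe on chromosome 7 between 19671579 and 19699188, with the related gene Apoc4 between Apoc2 and Apoc1. Apoa2 is on chromosome 1 (171225054 to 171226379), Apob on chromosome 12 (7977648 to 8016835) and Mttp on chromosome 3 (138089854 to 138144968). RefSeq's promoter table for GRCm38.p6 held windows of 300 bases, 250 before to 50 after a start, for 8 of the 10 genes. The sequences before the starts of Apoa1, Apoa4 and Apoa5 are shown because Apoa1 and Apoa4, neighbours on the plus strand, had log2 fold changes of opposite sign, with Apoa5 the next gene on that strand. Each run ends at the base before the earlier of the starts that RefSeq and GENCODE M21 give, all are on the plus strand 5′ to 3′, and capitals mark matches to the motifs listed after them. They are 200 bases at chr9:46228380-46228579 for Apoa1, 102 bases at chr9:46240594-46240695 for Apoa4 and 250 bases at chr9:46268358-46268607 for Apoa5.
Apoa1: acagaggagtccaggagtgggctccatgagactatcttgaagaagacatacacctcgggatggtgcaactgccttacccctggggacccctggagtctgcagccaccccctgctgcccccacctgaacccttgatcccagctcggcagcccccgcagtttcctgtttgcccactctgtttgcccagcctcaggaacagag
Apoa4: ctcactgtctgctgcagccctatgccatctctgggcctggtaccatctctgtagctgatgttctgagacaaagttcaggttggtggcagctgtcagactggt
Apoa5: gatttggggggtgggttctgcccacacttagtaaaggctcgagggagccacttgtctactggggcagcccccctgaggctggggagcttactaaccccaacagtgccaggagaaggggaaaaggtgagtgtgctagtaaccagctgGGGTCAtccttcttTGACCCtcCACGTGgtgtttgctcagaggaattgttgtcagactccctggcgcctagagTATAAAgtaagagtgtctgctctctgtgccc

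The letters searched in the 300-base windows were TATAAA (forward strand only) and, on both strands, the nuclear receptor half-sites AGGTCA and GGGTCA, the cAMP response element TGACGTCA, the HNF4A core CAAAGTCCA, the FOXO site TGTTTAC and the E-box CACGTG. Of 32851 RefSeq windows of this length, 8.32% held TATAAA, 16.3% AGGTCA, 13.7% GGGTCA, 1.79% TGACGTCA, 0.475% CAAAGTCCA, 3.65% TGTTTAC and 7.15% CACGTG. The Apoa5 window shown held the E-box, the half-site GGGTCA on each strand and, nearest the start, TATAAA, and none of these overlapped another. The windows of Apoa1 and Apoa4 held none of the 7 strings. Only 200 and 102 of their 300 bases lie before the earlier start, against 250 for Apoa5, so less sequence before the gene was searched. The strings were chosen after values were seen, and a match is a match of letters and not a measured site.

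Across the 10 genes, Apoa4 was higher and Apoa1 lower in every KO library than in any WT library, with the largest log2 fold changes of the 10. Apoc3 and Apoe, 2 abundant members, had overlapping groups. With all 6 libraries and p-values adjusted over all genes, 0 of the 10 passed the 0.05 threshold in edgeR's quasi-likelihood test, in which 3.37% of all genes tested were called. Apoa4 and Apoa1 lay just outside it, with adjusted p-values of 0.0507 and 0.0568. At an unadjusted p under 0.05 there were 3 of 10 members, against 26.3% of all genes. DESeq2 called 3 members (Apoa4 higher, Apoa1 and Apoa2 lower) against 15.8% of all genes, and limma voom called 2 (Apoa4 higher, Apoa1 lower) against 2.97%. On TMM-scaled CPM the groups did not overlap for 6 of the 10, with 4 lower and 2 higher in KO, against 32.4% of all genes in either direction. Apob, among those lower, was separated with this scaling but not as a share of unscaled counts. The median log2 fold change of the members was -0.31, against 0.01 over all genes tested.

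**Figure D1:**
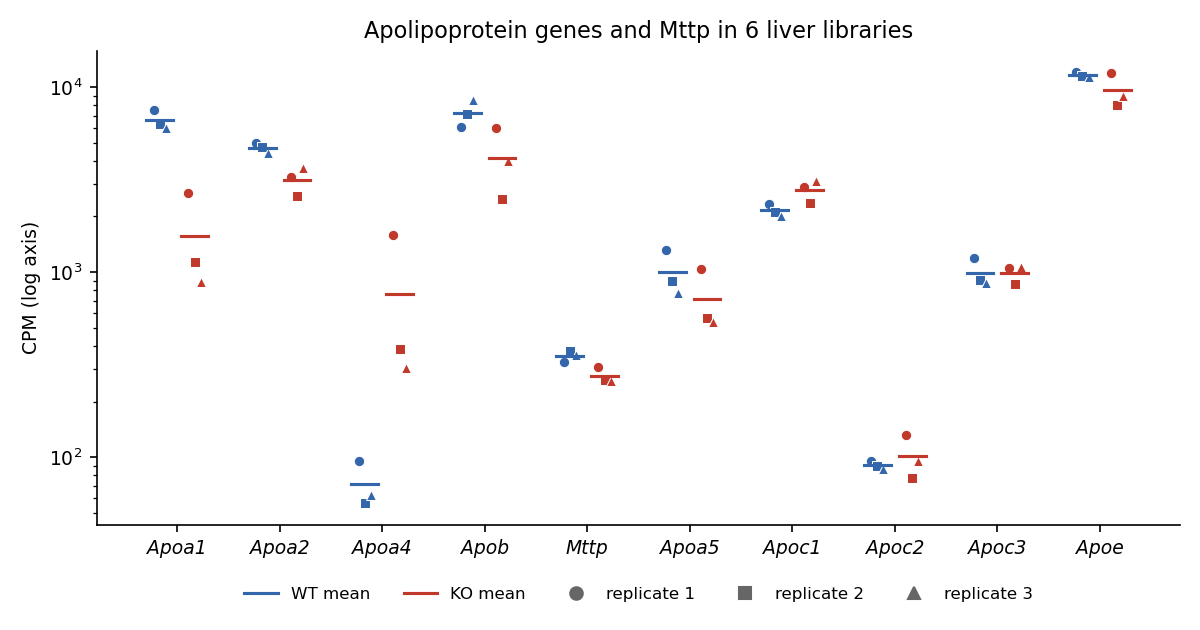
CPM of each gene in the 6 libraries on a log axis, with WT in blue, KO in red, marker shape for the replicate number and a bar for each group mean. The 3 KO values of Apoa4 (303 to 1591 CPM) lie above the 3 WT values (56.6 to 95.4 CPM), those of Apoa1 lie below WT, and the groups of Apoc3 overlap.

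Apoa1 (ENSMUSG00000032083.8) encodes the main structural protein of HDL and the activator of the esterifying enzyme LCAT. Its values were 2689.7, 1137 and 888 CPM in KO replicates 1 to 3 and 7499.8, 6346 and 5994 CPM in WT replicates 1 to 3. All KO libraries lay below all WT libraries, and KO 1 was the highest of the 3. The mean was 1571 ± 976 CPM in KO and 6613 ± 788 CPM in WT (SD, n = 3 each), 4.21-fold lower (log2 fold change -2.07 ± 0.452 SE, edgeR adjusted p = 0.0568). It was -2.61 (adjusted p = 0.00222) in the 4 Y-positive libraries and -1.48 in the Xist-positive pair.

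Apoa2 (ENSMUSG00000005681.12) encodes the second HDL protein. It had 3268, 2577 and 3633 CPM in KO and 4978, 4776 and 4397 CPM in WT, again with no overlap. Its log2 fold change was -0.58 ± 0.231 (SE, adjusted p = 0.172 in edgeR), and it was similar in the 4 Y-positive libraries, at -0.57, and in the Xist-positive pair, at -0.61. The messages of both HDL proteins were thus lower in every KO library, with a larger log2 difference for Apoa1 than for Apoa2. That difference between the genes was not tested.

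Apoa4 (ENSMUSG00000032080.6) encodes a lipid-binding protein of chylomicrons and HDL that intestine makes in large amounts and mouse liver also makes. It had 1591, 383 and 303 CPM in KO and 95.4, 56.6 and 62.6 CPM in WT. Every KO library lay above every WT library, and KO 1 was far above KO 2 and KO 3. The mean was 759 ± 722 CPM in KO and 71.5 ± 20.9 CPM in WT (SD, n = 3 each), with a log2 fold change of 3.41 ± 0.693 (SE, edgeR adjusted p = 0.0507). In the 4 Y-positive libraries it was 2.52 (adjusted p = 0.000867), and in the Xist-positive pair 4.06. The counts behind these values ran from 2928 in WT 3 to 92732 in KO 1, so counting error is small beside the spread between mice.

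Apoa1 and Apoa4 start about 12.1 kb apart, and Apoc3 lies between them on the other strand. In WT there were 78.6, 112 and 95.7 Apoa1 counts for each Apoa4 count, and in KO 1.69, 2.97 and 2.93. This ratio within a library does not depend on library scaling. That its groups did not overlap follows from the separation of each gene given above, and the pair was picked after those values were seen. Apoc3, the gene between them, had a log2 fold change of 0.0011 ± 0.207, so the 3 neighbours did not share a direction. The 3 other tested genes within 100 kb of this cluster, chosen after their values were seen, were Sik3, a kinase gene of the LKB1-regulated family, at -0.22 (adjusted p = 0.329 in edgeR), Zpr1 at 0.31 (0.328) and Bud13 at -0.16 (0.647). In the chromosome 7 cluster the log2 fold changes were 0.17 for Apoc2, 0.49 for Apoc4, 0.37 for Apoc1 and -0.26 for Apoe, and the mitochondrial import gene Tomm40 beyond Apoe, chosen in the same way, was at 0.68 (adjusted p = 0.097). None of the 21 tested genes in or within 100 kb of the clusters passed the threshold in edgeR.

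Apob (ENSMUSG00000020609.14) encodes the scaffold protein of VLDL. It had 5989, 2476 and 4004 CPM in KO and 6089.8, 7172 and 8545 CPM in WT. KO 1 was only just below the lowest WT library, WT 1, and KO 2 and KO 3 were well below. The log2 fold change was -0.81 ± 0.365 (SE, edgeR adjusted p = 0.216). It was -1.28 (adjusted p = 0.0342) in the 4 Y-positive libraries and -0.024 in the Xist-positive pair. These counts are totals over the gene and cannot separate the edited Apob-48 message from the Apob-100 message.

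Mttp (ENSMUSG00000028158.14) had 306, 262 and 259 CPM in KO and 328, 374 and 356 CPM in WT, and the groups did not overlap. Its log2 fold change was -0.36 ± 0.155 (SE, edgeR adjusted p = 0.201), with -0.49 (adjusted p = 0.0436) for the Y-positive libraries and -0.10 for the Xist-positive pair. P4hb, the subunit that forms the active complex with the Mttp product and was singled out after its values were seen, was at 1270 to 1461 CPM in KO and 1381 to 1425 CPM in WT. Before scaling, the shares of Apob were nearly equal in KO 1 (349110 of 56147667 counts) and WT 1 (308898 of 49686376), with KO 1 not below WT 1. Apob was thus not separated on unscaled shares. After TMM scaling, the messages of the VLDL scaffold and its loading protein were lower in all KO libraries than in any WT library. Their interaction with the Xist or Y-linked state did not pass, with unadjusted p-values of 0.0737 for Apob and 0.169 for Mttp in edgeR.

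Apoc1 (ENSMUSG00000040564.14) encodes a small protein that inhibits lipoprotein uptake. It had 2877, 2359 and 3103 CPM in KO and 2334, 2115 and 2020.3 CPM in WT, with every KO library above every WT library. Its log2 fold change of 0.37 ± 0.211 (SE) was not past the threshold (edgeR adjusted p = 0.313), and it was 0.40 for the Y-positive libraries and 0.30 for the Xist-positive pair. Apoc2 (ENSMUSG00000002992.17), the cofactor of lipoprotein lipase, had 132, 76.9 and 95.8 CPM in KO and 95.1, 89.7 and 86.0 CPM in WT, which overlapped (log2 fold change 0.17 ± 0.208, adjusted p = 0.626). Its value was -0.030 in the Y-positive libraries and 0.48 in the Xist-positive pair.

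Apoc3 (ENSMUSG00000032081.10) encodes an inhibitor of triglyceride clearance. It had 1055, 859 and 1063 CPM in KO and 1189, 908 and 877 CPM in WT, and its means of 992 ± 116 and 991 ± 172 CPM (SD, n = 3 each) were nearly equal (edgeR adjusted p = 0.998). Apoa5 (ENSMUSG00000032079.12), a promoter of lipase action made almost only in liver, had 1039, 565 and 541 CPM in KO and 1315, 901 and 775 CPM in WT. The groups overlapped because KO 1 lay above WT 2 and WT 3 (log2 fold change -0.48 ± 0.335, adjusted p = 0.397). In the 4 Y-positive libraries the groups did not overlap and it was -0.60 (adjusted p = 0.0459).

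Apoe (ENSMUSG00000002985.16) encodes the ligand through which remnant particles bind their receptors. It had 11931, 8001 and 8989 CPM in KO and 12028, 11431 and 11280.1 CPM in WT. KO 1 lay among the WT values and the other KO libraries lay below them. The log2 fold change was -0.26 ± 0.268 (SE, edgeR adjusted p = 0.561), with -0.42 (adjusted p = 0.286) in the 4 Y-positive libraries and -0.012 in the Xist-positive pair.

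**Figure D2:**
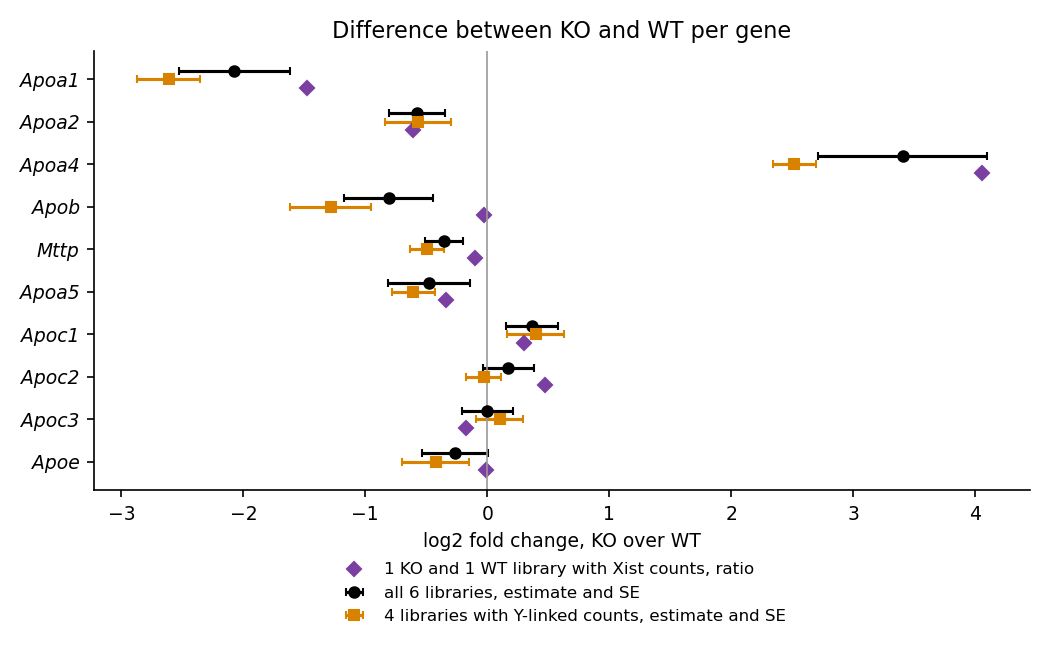
Log2 fold change (KO over WT) of each gene from all 6 libraries (black, edgeR estimate and SE), from the 4 Y-positive libraries (orange, estimate and SE) and from the single Xist-positive pair (purple, ratio with an offset of 0.1 CPM, no error). Apoa1 and Apoa4 keep their direction in all 3, while Apob runs from -1.28 in the 4 libraries to -0.024 in the pair.

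Of the 10 genes, 8 had the same sign in the 4 Y-positive libraries and in the Xist-positive pair, the exceptions being Apoc2 and Apoc3. In the 4 libraries 5 members passed the threshold (Apoa1, Apob, Mttp and Apoa5 lower, Apoa4 higher), but so did 33.3% of all genes tested there. Without KO 1, 4 members passed (the same without Apoa5) against 30.2% of all genes. With the Xist or Y-linked state as a term and all 6 libraries, Apoa4 (adjusted p = 0.0189) and Apoa1 (adjusted p = 0.0246) passed in edgeR, against 10.3% of all genes. Both also passed with no filter on low counts, where 3.25% of genes were called, and Apoa4 alone with a minimum of 10 CPM in 3 libraries, where 9.04% were called.

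Whether the KO difference itself depended on this state was tested as an interaction over the 6 libraries. It passed for 0 of the 10 genes after adjustment, against 2.90% of all genes in edgeR, and for 2 of 10 at an unadjusted p under 0.05, against 20.9%. Those were Apoa4 (interaction 1.54 ± 0.323 SE on the log2 scale, more positive in the Xist pair, adjusted p = 0.0797) and Apoa1 (1.13 ± 0.443, less negative in the Xist pair, adjusted p = 0.231). By limma voom 0 of the 10 passed after adjustment. Each group has 1 library with Xist counts, so a property of those 2 mice other than this state cannot be told apart from it.

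The KO mice differed from each other more than the WT mice did. The coefficient of variation was larger in KO than in WT for 9 of the 10 genes, all but Apoc3, and for 72.9% of all genes tested. Its median over the 10 genes was 24.5% in KO and 9.69% in WT, against 21.1% and 12.01% over all genes. KO 1 had the highest value of the KO libraries for 7 of the 10, the exceptions being Apoa2, Apoc1 and Apoc3, and for 40.7% of all genes. Apoa4 had the widest KO spread, with a coefficient of variation of 95.1%, and Mttp the narrowest, with 9.56%.

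Together the 10 genes took 3.67%, 3.25% and 3.38% of all counts in WT replicates 1 to 3 and 3.21%, 2.03% and 2.12% in KO replicates 1 to 3, so each KO library gave them a smaller share than any WT library. Without Apoa1 and Apoa4 the other 8 summed to 26598, 17176 and 21687 CPM in KO. In WT they summed to 28357, 27767 and 28336 CPM, with no overlap between groups after TMM scaling. That gap rests on the scaling, with a factor of 1.04 for KO 1 and 0.952 for WT 2. As a share of unscaled counts, KO 1 lay above WT 2 for these 8 genes, so the groups overlapped. In bulk tissue fewer hepatocytes and less of these messages per hepatocyte cannot be told apart.

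Levels of different genes were compared as CPM per kb of annotated exon. In WT the order was Apoa2 (8784 ± 549 CPM per kb, SD, n = 3), Apoe (5416 ± 185), Apoa1 (5350.4 ± 637), Apoc1 (2898 ± 216), Apoc3 (978 ± 170), Apob (522 ± 88.3), Apoa5 (395 ± 112), Apoc2 (111 ± 5.61), Mttp (56.8 ± 3.75) and Apoa4 (39.4 ± 11.5). Only the neighbours Apoe and Apoa1, and Apob and Apoa5, overlapped in their WT ranges. In KO, Apoa4 (418 ± 398 CPM per kb) stood at rank 6, against rank 10 in WT, and Apoa1 (1271 ± 790.0) at rank 4, against rank 3. In KO the ranges of Apoa2, Apoe and Apoc1, at ranks 1 to 3, each overlapped the next, as did those of Apoa1, Apoc3, Apoa4, Apob and Apoa5. Within every KO library, however, Apoa2 was above Apoe, Apoe above Apoc1, and Apoc3 above Apoa4. The order of Apoa1 and Apoc3, of Apoa4 and Apob, and of Apob and Apoa5 differed between KO libraries and is not settled. With the longest transcript as length, Apoe and Apoa2 changed places in KO. As a share of the summed CPM per kb of the 10 genes, Apoa1 was 22.9%, 21.2% and 21.1% in WT and 10.5%, 6.46% and 4.05% in KO, and Apoa4 was at most 0.199% in WT and at least 0.940% in KO.

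Genes whose annotated ranges overlap these 10 were counted too, since the use of strand in counting is not given. The genes on the other strand over Apoa4, Gm10680 and Gm47528, had at most 13 and 0 counts in any library, against at least 2928 for Apoa4. Gm47544 over Apoa5 had at most 7 counts and Gm43691 over Mttp had 0. Trmt10a, which overlaps the start of Mttp on the other strand, had 156 to 314 counts. Gm44805, which spans Apoc2 on the same strand and shares exon sequence with it, had 489 to 1194 counts against 4023 to 7717 for Apoc2. RSEM divides such reads by estimate, so the Apoc2 level is uncertain to that degree.

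Outside the 10 genes, 7 lists of lipoprotein genes were followed, with 116 genes in all, of which 111 were tested and 7 passed the threshold in edgeR, 4 higher and 3 lower, where 3.37% of all genes tested were called. Among other apolipoproteins and proteins carried on HDL, 1 of 18 tested rose, 0 fell and the median was -0.05. It was Apol9b, a member of the interferon-inducible Apol family with near-identical copies, so that its counts depend on how reads were divided. It had 185, 353 and 412 CPM in KO and 106, 103 and 113 CPM in WT (log2 fold change 1.56, adjusted p = 0.0446). Among genes of VLDL assembly and export, 0 of 30 rose, 2 fell and the median was -0.16. Sort1, a sorting receptor that binds apolipoprotein B, fell to 9.59, 5.24 and 5.28 CPM from 22.4, 46.8 and 49.8 CPM (-2.56, adjusted p = 0.027), and Sec24d, a cargo adaptor of COPII vesicles, fell from 89.6, 94.4 and 96.4 CPM to 59.96, 50.2 and 56.4 CPM (-0.75, adjusted p = 0.0322).

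Of the 3 genes of Apob messenger editing, 0 passed. A1cf, the RNA-binding partner, was at -0.58 (adjusted p = 0.118) and the deaminase Apobec1 at -0.29 (0.217), each with every KO library below every WT library. In HDL formation and remodelling 0 of 9 passed by edgeR, 4 had an unadjusted p under 0.05, against 26.3% of all genes, and the median was -0.52. Abca1, the exporter that loads lipid onto apolipoprotein A-I, had 153, 145 and 130 CPM in KO and 190.1, 203 and 234 CPM in WT (-0.55, adjusted p = 0.0854), and Pdzk1, a scaffold of the HDL receptor, was at -1.22 (adjusted p = 0.105). In lipolysis and its regulators 0 of 9 passed, 5 had an unadjusted p under 0.05, beside the same 26.3% of all genes, and the median was -0.45. Its leading genes were the protease gene Pcsk5 at 0.99 (0.0764) and the lipase maturation factor Lmf1 at -0.64 (0.0767).

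Among receptors and clearance genes 1 of 14 rose, 0 fell and the median was -0.45. Sdc1, the heparan sulfate proteoglycan that clears remnants, rose to 686, 868 and 1079 CPM from 254, 197 and 195 CPM (log2 fold change 2.03, edgeR adjusted p = 0.0149). Of 30 transcription factors and coregulators known for apolipoprotein genes, 2 rose, 1 fell and the median was -0.17. The coactivator Ppargc1a rose by 2.98 (adjusted p = 0.0446), its partner Esrra rose by 1.53 (0.048), and Nr0b2, the repressor known as SHP, fell by 0.77 on the log2 scale (0.0347). Hnf4a and Creb3l3, 2 factors known for Apoa4 and picked out after their values were seen, were at 0.20 (0.47) and -0.67 (0.319). Creb3l3 was at 271, 99.7 and 112 CPM in KO and 215, 274 and 281 CPM in WT. Its log2 ratio was -1.39 in the Y-positive libraries and 0.34 in the Xist-positive pair, so its sign differed between them. The log2 fold changes of the 7 called genes had the same sign in the Y-positive libraries and in the Xist-positive pair, but that of Ppargc1a was 3.91 against 1.00 and that of Sort1 -3.17 against -1.22. The interaction passed for these 2 of the 7 (edgeR adjusted p = 0.0103 and 0.00952), against 2.90% of all genes, and it rests on 1 Xist-positive library in each group. Without KO 3, WT 2 or WT 3, 0 of the 7 passed in edgeR (adjusted p from 0.0607 to 0.211). Sdc1 alone passed without KO 2, Sdc1, Ppargc1a and Sort1 without WT 1, and all 7 without KO 1. By limma voom 6 of the 7 passed, and Esrra did not (adjusted p = 0.0577).

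**Figure D3:**
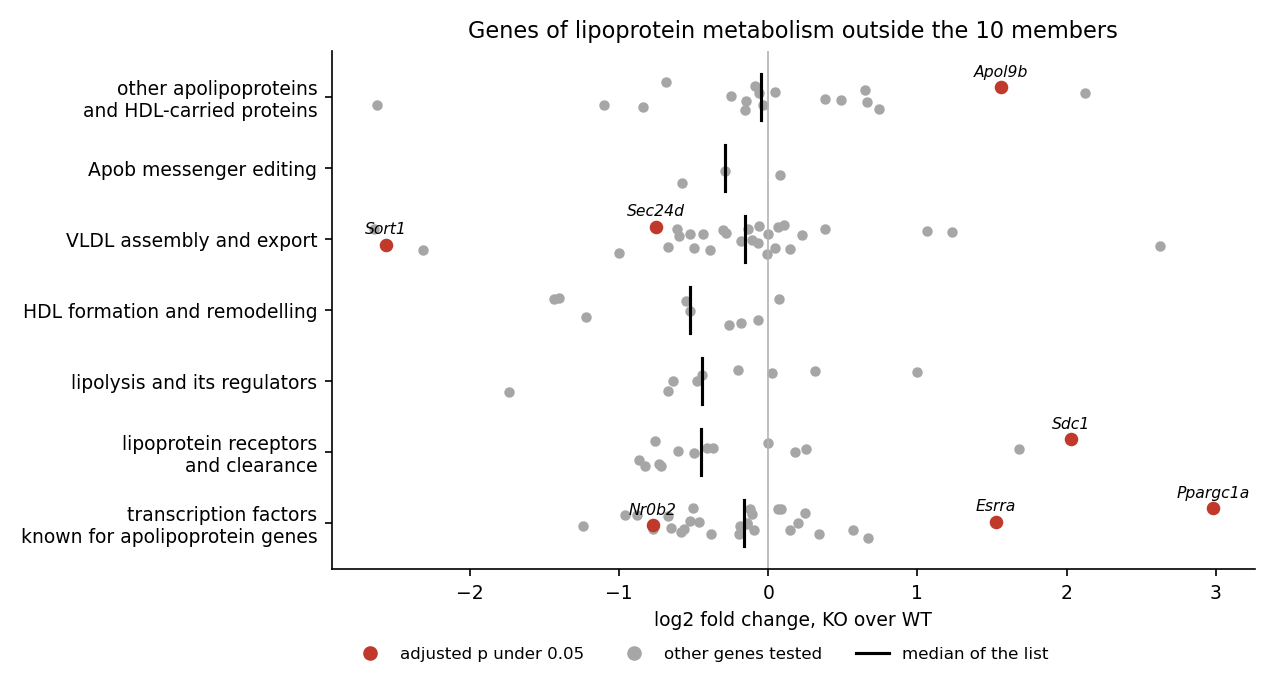
Log2 fold change (KO over WT) of the genes tested in 7 lists of lipoprotein metabolism, with genes past an edgeR adjusted p of 0.05 in red and named, the others in grey and a black bar for the list median. The 7 red genes lie at -2.56, -0.77 and -0.75 and from 1.53 to 2.98, and the list medians lie between -0.52 and -0.05.

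The tested genes whose profiles over the 6 libraries were nearest to those of the 2 members with the smallest p were found among 7504 genes with a mean of at least 10 CPM, by the mean absolute difference of log2 CPM after each gene's mean was taken away. Nearest to Apoa4 were Egln3, an oxygen-sensing prolyl hydroxylase (0.56), Oat, ornithine aminotransferase (0.66), and Sept11, a septin (0.66). Nearest to Apoa1 were Mvd, an enzyme of the mevalonate pathway (0.16), Hsd17b2, a steroid dehydrogenase (0.19), and Ugt1a1, a glucuronosyltransferase that shares exons with other Ugt1a genes (0.21). Mvd had 7.79, 3.24 and 3.31 CPM in KO and 24.4, 21.6 and 15.6 CPM in WT, with KO 1 the highest KO library and WT 1 the highest WT library, as for Apoa1. Apoa4 had no profile as near as those of Apoa1.

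Markers of cell types were summed in each library. The 8 hepatocyte markers came to 38383.5 to 84654.5 CPM in KO and 90419 to 134328 CPM in WT without overlap, with 4 of the 8 above 0 in log2 fold change, Tat called as higher in edgeR and none at 0 counts. Alb was the highest of the 8 in every library, with 50550 CPM, 10394 CPM and 17534 CPM in KO and 95626 CPM, 69977 CPM and 57064 CPM in WT. Without Alb the other 7 came to 34105, 27989 and 44425 CPM in KO and 38702, 35210.2 and 33355 CPM in WT, which overlapped, and KO 3 was the highest library. Each of Tat, Cps1 and Arg1, enzymes of amino acid breakdown and the urea cycle, was higher in every KO library than in any WT library. Ttr, Trf and Fgb went the other way, with at most 3261, 12985 and 3040 CPM in KO and at least 5058, 14681 and 3986 CPM in WT. Serpina1a overlapped, so the sum without Alb joins genes of opposite direction. The sinusoidal endothelial markers came to 92.7 to 153 CPM in KO and 190.2 to 257 CPM in WT, with the log2 fold change below 0 for all 8 genes and 0 of them called. Macrophage markers, of cells that also express Apoe, came to 129 to 288 CPM in KO and 185 to 254 CPM in WT, with overlap and 3 of 10 genes above 0. Stellate (128 to 251 against 196 to 405 CPM) and bile duct markers (25.0 to 74.9 against 39.7 to 73.3 CPM) overlapped as well, and lymphocyte markers were at most 3.27 CPM in sum. The log2 fold change was below 0 for all 8 stellate genes (median -0.47), all 6 lymphocyte genes (median -0.94) and 3 of 6 bile duct genes. The 6 intestinal markers, which bear on Apoa4, came to 107 to 149 CPM in KO and 91.9 to 115 CPM in WT, with overlap. Nearly all of this was Fabp2, at 75.4, 9.54 and 10.7 CPM in KO and 38.3, 47.3 and 40.9 CPM in WT, and Cdhr5, at 64.8, 139 and 96.4 CPM in KO and 52.9, 67.2 and 66.7 CPM in WT. Fabp2, like Apoa4, was highest in KO 1. In KO 2 and KO 3, however, Fabp2 lay below every WT library, whereas Apoa4 lay above every WT library. Sis was at 0 in every library, and Lct, Muc2 and Vil1 were at most 0.0428, 0.0641 and 0.67 CPM. Of 6 pancreatic acinar markers 5 were at 0 in every library, and Cela1 was at 3.26 to 6.18 CPM in KO and 6.49 to 18.3 CPM in WT. The part of these marker differences in the values of the 10 genes was not tested.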

How the data were processed

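RNA sequencing of 6 mouse livers was analysed from 1 table. Per the submitters' processing notes the tools included cutadapt 1.18, STAR 2.7.0f and RSEM 1.3.1, with mm9 named as the build. The authors deposited expected counts, the estimated reads per gene that RSEM gives. All 55450 versioned gene identifiers and symbols match GENCODE M21, made for GRCm38 and not mm9, so positions and exon lengths come from M21. The use of strand is not given in the sources used here.

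Expected counts were rounded, filtered with filterByExpr and scaled with TMM factors. KO and WT were compared by edgeR 4.0.16's quasi-likelihood test in R 4.3.3, with Benjamini-Hochberg adjustment over 14539 genes, and the SE is the log2 fold change divided by the square root of F. Alternatives used DESeq2 1.42.0, limma 3.58.1, other scalings, filters, terms and subsets. CPM uses TMM-scaled sizes, and log2 CPM for profiles adds a prior count of 2.

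The genes and lists were chosen with earlier results of these data known. Named are the 10 genes, Stk11, up to 6 called genes per list (or the 2 with the smallest p), overlapping genes and the 3 nearest profiles. Any other gene is said to be chosen after its values were seen, or is a marker.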

Additional observations from a re-analysis of the deposited data

How the results depend on the processing

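Over 17 alternatives the direction of Apoa1, Apoa2, Apoa4, Apoa5, Apob, Apoc1, Apoe and Mttp did not change. The number of the 10 genes past the threshold was 0 in the main edgeR fit. With all 6 libraries still in use it became 3 by DESeq2, 2 by limma voom, 2 with no filter on low counts, 1 with at least 10 CPM in 3 libraries and 2 with the Xist/Y-linked state as a term. In the Y-positive libraries alone it was 5. It was 0 to 4 when 1 library was left out, the 4 being without KO 1. Apoa4 passed under 7 and Apoa1 under 6 of the 17. The cause of these moves was not tested. The number of all genes called was 490 and became 2290 by DESeq2, 771 with no filter (23717 genes tested), 1504 with the state as a term, 4847 in the Y-positive libraries, and 6 (without WT 2) to 4473 (without KO 1) when 1 library was left out.

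With the replicate block 105 genes were called, with 0 of the 10 and 0 of the 7 called list genes (adjusted p from 0.0595 to 0.0981) among them, with adjusted p-values of 0.0563 for Apoa4 and 0.0777 for Apoa1. Same-numbered mice are not paired by the labels, and their deviations correlated at 0.178, 0.0443 and 0.0679, with KO 2 and KO 3 each closer to another number. Values near 0 changed sign. Apoc3 was at -0.010 by DESeq2, with RLE size factors and with no filter, at -0.025 with upper-quartile factors, at -0.039 with at least 10 CPM, and at -0.080 to 0.15 when 1 library was left out. Apoc2 was at -0.030 in the Y-positive libraries and at -0.071 to 0.35 when 1 library was left out. P4hb was at 0.039 with library size alone and -0.039 to 0.068 when 1 library was left out. Of all genes called, 313 were higher and 177 lower, and 380 were higher and 131 lower with library size alone. The order of levels per kb in WT was the same with the longest transcript as length. The lowest count of any of the 10 genes in a library was 2928.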
